A study of Mus musculus with 4 samples.

Results

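The 8 genes described here are PPAR targets and lipid droplet genes of large peritoneal macrophages (LPMs), which reside in the peritoneal cavity: the fatty acid binding proteins *Fabp4* and *Fabp5*, the perilipins *Plin2* and *Plin3*, the secreted lipase inhibitor *Angptl4*, the pyruvate dehydrogenase kinase *Pdk4* and the acyltransferases *Dgat1* and *Dgat2*. They were chosen by name, and all 8 of 8 were among the 18364 genes of the expression table. LPMs were double-sorted from C57BL/6 mice at 8 weeks of age and their RNA was sequenced in bulk, with 2 libraries labelled WT and 2 labelled Rxra-KO. Per the study, Rxra-KO mice carried Rxra fl/fl alleles together with Cre driven by the *Lyz2* (LysM) locus, which is active across myeloid cells, and WT mice were littermates with the same Rxra fl/fl alleles and no Cre, so the floxed alleles were shared by both groups. The sources used here do not state whether each library came from a separate animal or from pooled animals. P-values rest on spread between these libraries that is shared across genes, and this spread may be technical. RNA-seq samples that did not cluster with their group were excluded by the authors.

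PPARs are nuclear receptors that bind fatty acids and their derivatives and act on DNA as heterodimers with RXRs. Their targets include proteins that carry fatty acids in the cytosol, coat the lipid droplet or shift fuel use from glucose to fatty acids. In macrophages, neutral lipid is stored in droplets whose triglyceride is made by DGAT enzymes and whose surface is covered by perilipins.

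*Fabp4* and *Fabp5* lie close together on the same chromosome in the mouse annotation (RefSeq, GRCm38.p6), where *Fabp5*, *Pmp2*, *Fabp9*, *Fabp4* and *Fabp12* are consecutive genes. The starts of their coding sequences are shown because reads of related genes can be told apart only where the letters differ. Each stretch is 90 bases of the GENCODE mouse coding sequence, 5′ to 3′, aligned to bases 1 to 90 of *Fabp4*, and capitals mark bases that differ from *Fabp4*. *Fabp7*, a paralogue expressed in brain, is included because it also passed the test described below. It had 2 to 34 reads per library, and its result depended on single libraries.
Fabp4: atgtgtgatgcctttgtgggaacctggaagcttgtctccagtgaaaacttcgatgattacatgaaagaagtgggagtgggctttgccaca
Fabp5: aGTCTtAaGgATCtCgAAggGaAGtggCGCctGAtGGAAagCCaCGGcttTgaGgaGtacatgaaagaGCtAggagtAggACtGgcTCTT
Fabp7: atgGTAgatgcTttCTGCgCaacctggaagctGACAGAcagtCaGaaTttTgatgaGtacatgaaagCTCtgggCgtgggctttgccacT
Within the stretch, *Fabp5* (its bases 7 to 96) differed from *Fabp4* at 43 positions and *Fabp7* at 25. Over the whole alignment, *Fabp5* was identical to *Fabp4* at 60.4% of 399 bases and *Fabp7* at 59.9%. No stretch of 31 bases of the *Fabp4* transcripts (0 of 866) was found in a transcript of another gene. For *Fabp5*, 317 of 957 such stretches (33.1%) also occurred in 5 other genes, among them *Gm6166*, *Gm14328* and *Fabp5l2*, none of which had a row in the table. The *Fabp5* value is therefore uncertain to the extent that the authors' quantification split reads among these copies, whereas for *Plin2* the share was 7.56%, in a single other gene, *Gm12551*.

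Promoter windows of the reference table covered 3 of the 8 genes, *Plin2*, *Plin3* and *Pdk4*. Each window was searched for the nuclear receptor half-site AGGTCA on both strands, and for a pair of such half-sites repeated in the same direction with 1 base between them (DR1, the arrangement bound by PPAR with RXR) with at most 2 mismatches among its 12 half-site bases, so that DR1 matches can overlap half-site matches. The half-site was present in 16.3% of all 32851 windows of 300 bases and a DR1 match in 3.86%. *Plin2* held both, whereas *Plin3* and *Pdk4* held neither. *Fabp7* held the half-site without a DR1 match. The 250 bases before the start of *Plin2* (minus strand, chr4:86670060-86670309, RefSeq GRCm38.p6) and of *Fabp7* (plus strand, chr10:57784673-57784922) are printed 5′ to 3′ with the matches in capitals.
Plin2: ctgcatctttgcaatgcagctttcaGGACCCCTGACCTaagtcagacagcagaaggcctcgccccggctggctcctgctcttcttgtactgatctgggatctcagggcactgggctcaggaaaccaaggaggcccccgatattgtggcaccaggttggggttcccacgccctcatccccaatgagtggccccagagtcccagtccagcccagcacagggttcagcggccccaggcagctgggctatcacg
Fabp7: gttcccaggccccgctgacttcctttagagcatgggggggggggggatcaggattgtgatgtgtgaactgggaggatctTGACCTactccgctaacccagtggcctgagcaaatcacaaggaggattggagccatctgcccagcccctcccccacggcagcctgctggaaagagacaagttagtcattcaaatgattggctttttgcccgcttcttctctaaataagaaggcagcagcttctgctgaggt
A match is a description of the letters only, and binding was not measured in the libraries used here.

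Expression was given as normalised read counts, from which whole reads were recovered. Depth was 652542 and 947372 reads in WT against 629030 and 1047021 reads in Rxra-KO, and 1 read was worth a value between 0.993 and 1.51. The floor of detection was set at 3 reads in each of a group's libraries, a value of 2.98 to 4.54. Reads of the targeted gene were not lower in Rxra-KO. *Rxra* had values of 31.04 and 30.9 in WT against 50.4 and 77.0 in Rxra-KO (log2 fold change 0.99, SE 0.363, limma adjusted p = 0.183). This difference was not called. The study reported efficient reduction of *Rxra* by quantitative PCR in LPMs of other mice, which carried the same Cre with floxed *Rxra* and *Rxrb*. Gene-level reads do not show whether the deleted part of *Rxra* was absent, so the groups are called the libraries labelled WT and the libraries labelled Rxra-KO. Markers of LPMs were present in all libraries, but their summed value was 35945 and 38038 in WT against 18298 and 20316 in Rxra-KO. Most of each sum came from *Prg4* alone (28429 and 29683 in WT, 15129 and 16567 in Rxra-KO). Of the 10 markers, 9 had a log2 fold change below 0 and 7 were called lower. *Timd4*, *Cd9* and *Cxcl13* were not called, and *Cxcl13* was above 0 (0.25). The study had named *Gata6* and *Icam2* as lower from these libraries, so their direction is not independent evidence. It also reported lower GATA-6 and CD102 (ICAM2) by flow cytometry, which was not used here. The summed value of small peritoneal macrophage (SPM) markers was 366 and 109 in WT against 4329 and 5806 in Rxra-KO. The study described these 7 as genes mostly limited to SPMs, citing earlier work. It listed them for being higher in Rxra-KO libraries of this series, so that direction was fixed by the choice and nothing is read from it. Adipocyte markers, of interest because adipocytes express *Fabp4* and *Plin1*, summed to 36.3 and 21.7 in WT against 36.1 and 34.8 in Rxra-KO, with 0 of 6 called.

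Of the 8 genes, *Fabp4* and *Fabp5* fell in the libraries labelled Rxra-KO, by 3.45-fold and 3.81-fold in the ratio of group means, and no other gene of the 8 passed the test. A gene was called at a limma adjusted p under 0.05, adjusted over all genes of the table, and a log2 difference of 0.6 or more in either direction. Among all genes, 421 were called (2.29%), 243 higher (1.32%) and 178 lower (0.969%), against 2 of 8 here, both lower. The balance of directions over all genes depended on single libraries, with 155 higher and 177 lower without Rxra-KO replicate 2 and 166 higher and 70 lower without WT replicate 2. *Fabp4* and *Fabp5* had been named by the study from these libraries, so their share is not independent evidence of a direction. The study also showed quantitative PCR of lipid homeostasis genes in LPMs of other mice, with floxed *Rxra* and *Rxrb*. Its caption does not name the genes measured, and those values were not used here. The groups did not overlap for 4 of the 8 genes, against 38.1% of all genes. The median log2 fold change was -0.04 over the 8 genes and 0.02 over all genes.

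**Figure D1:**
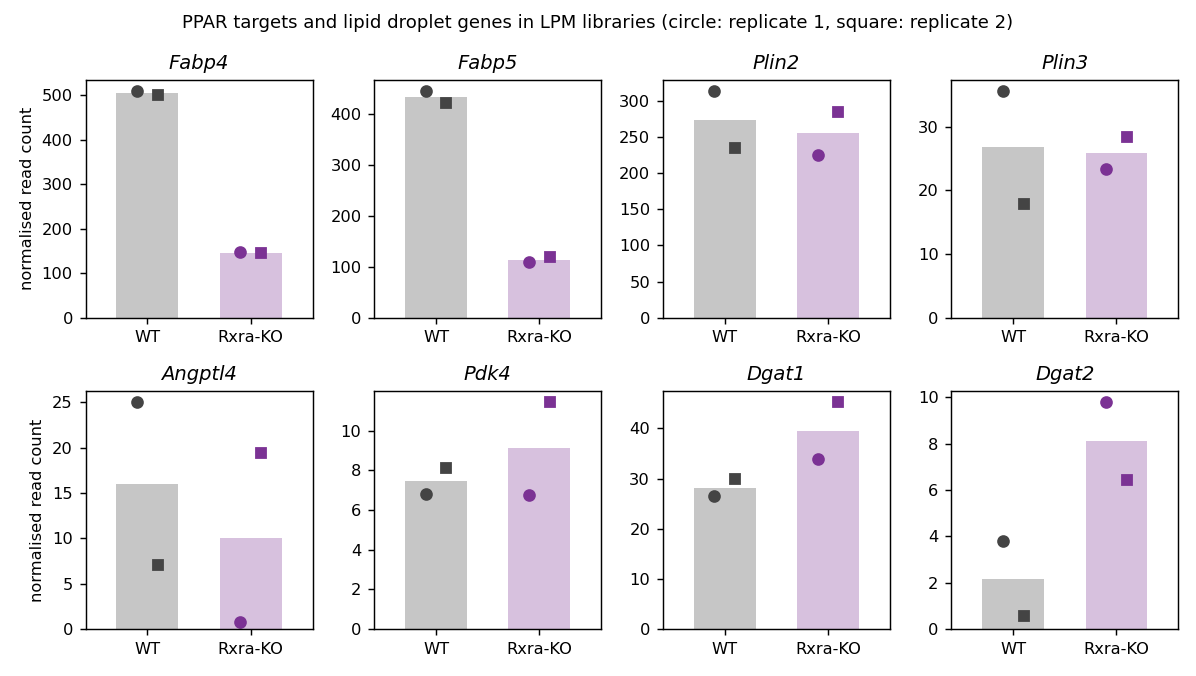
Normalised read count (linear axes from 0, each gene with its own scale) of the 8 genes in the libraries labelled WT (grey) and Rxra-KO (purple); points are libraries (circle, replicate 1; square, replicate 2) and bars the mean of 2. *Fabp4* sits at 500 to 509 in WT and 146 to 147 in Rxra-KO, and the groups overlap for *Plin2*, *Plin3*, *Angptl4* and *Pdk4*.

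*Fabp4*, the cytosolic fatty acid carrier of adipocytes and macrophages, had values of 509 and 500 in WT against 147 and 146 in Rxra-KO. These rested on 336 and 460 reads in WT against 97 and 146 reads in Rxra-KO. The replicates of each group were close to each other and the groups did not overlap. The mean was 505 ± 7.02 across WT and 146 ± 0.919 across Rxra-KO libraries (SD, n = 2 each). *Fabp4* fell by 1.78 on the log2 scale (SE 0.237, 95% interval -2.25 to -1.31, limma adjusted p = 5.19e-10).

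*Fabp5*, which carries fatty acids in the cytosol of skin cells and macrophages, had values of 446 and 423 in WT against 109 and 119 in Rxra-KO. Its reads were 294 and 389 in WT against 72 and 119 in Rxra-KO. Again both Rxra-KO libraries lay below both WT libraries. The mean was 434 ± 16.5 across WT and 114 ± 6.74 across Rxra-KO libraries (SD, n = 2 each). *Fabp5* fell by 1.92 on the log2 scale (SE 0.244, 95% interval -2.40 to -1.44, limma adjusted p = 5.66e-11). Ordered by p over all genes, *Fabp5* was number 42 and *Fabp4* number 44, and ordered by size of the log2 fold change among the 178 genes called lower they were number 47 and number 57. In bulk RNA, fewer cells of a type and less RNA per cell cannot be told apart. The summed value of LPM markers, mostly *Prg4*, was lower in the same libraries as both genes. Its part in the result was not tested.

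The number of *Fabp4* reads per *Fabp5* read was 1.14 and 1.18 in WT against 1.35 and 1.23 in Rxra-KO. Together the pair took 0.0966% and 0.0896% of WT reads and 0.0269% and 0.0253% of Rxra-KO reads. The share was lower in both Rxra-KO libraries than in both WT libraries. Leaving out any 1 library gave log2 fold changes of -1.80 to -1.77 for *Fabp4* and -1.98 to -1.86 for *Fabp5*, all called. In limma the calls rested on the mean-variance trend of the fit, since limma without a trend gave adjusted p = 0.472 for *Fabp4* and 0.453 for *Fabp5*. That setting called 0 genes of the whole table. Both genes were called by edgeR, DESeq2 and voom on recovered reads.

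Likeness of profile was measured as the Euclidean distance between log2(value + 1) values centred on each gene's mean over the 4 libraries, among 3466 other genes with a mean value of at least 50. The gene nearest to *Fabp4* was *Efnb2*, an ephrin ligand (distance 0.0685), followed by the adaptor *Sla* (0.173) and by *Fabp5* (0.173). The genes nearest to *Fabp5* were *Efcab5* (0.125), the inflammasome sensor *Naip1* (0.155) and *Fabp4* (0.173). The 4 libraries form 2 groups, so the distance holds the difference between the groups as well as the spread within them.

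Perilipins coat the lipid droplet and limit access of lipases, and neither of the 2 measured here passed the test. *Plin2*, the main droplet coat protein of cells other than adipocytes, had values of 314 and 235 in WT against 225 and 286 in Rxra-KO, from 149 to 287 reads per library. The groups overlapped, with 1 Rxra-KO library below and the other between the WT libraries. Its log2 fold change was -0.10 (SE 0.239, 95% interval -0.57 to 0.37, limma adjusted p = 0.968). The interval lies inside the fold threshold of 0.6 on both sides, but its width rests on spread shared across genes. Unadjusted p was 0.679 in this limma fit and 0.822 in limma without a trend. *Plin3*, a perilipin that moves from the cytosol to young droplets, had values of 35.6 and 17.9 in WT against 23.3 and 28.3 in Rxra-KO. Its WT libraries spanned both Rxra-KO libraries, with 15 to 28 reads per library. The log2 fold change of *Plin3* was 0.02 (95% interval -0.86 to 0.90, limma adjusted p = 0.994), and it turned with the library left out, as did that of *Plin2* (-0.31 to 0.11 for *Plin2* and -0.45 to 0.50 for *Plin3*).

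*Angptl4* encodes a secreted inhibitor of lipoprotein lipase and is induced by fatty acids through PPARs in many tissues. Its values were 25.0 and 7.05 in WT against 0.753 and 19.4 in Rxra-KO, from 16, 6, 0 and 19 reads. The spread within each group was wide and the groups overlapped. The log2 fold change was -1.28 (SE 0.723, 95% interval -2.70 to 0.15, limma adjusted p = 0.587), and a single library decided its direction, since it was 0.49 without Rxra-KO replicate 1, -3.05 without Rxra-KO replicate 2, -2.12 without WT replicate 2 and -0.43 without WT replicate 1. *Pdk4*, the kinase that switches off pyruvate dehydrogenase in fasting, had 4 and 7 reads in WT against 4 and 11 in Rxra-KO. Its values were 6.81 and 8.14 in WT against 6.78 and 11.4 in Rxra-KO, so the groups overlapped. The log2 fold change of 0.22 had a 95% interval of -1.17 to 1.61 (limma adjusted p = 0.981), and no difference was detectable at this depth.

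*Dgat1* and *Dgat2* encode the unrelated enzymes that add the last fatty acid to make triglyceride. *Dgat1* had values of 26.5 and 29.8 in WT against 33.9 and 45.2 in Rxra-KO, from 17, 27, 22 and 45 reads. Both Rxra-KO libraries were above both WT libraries, but the log2 fold change of 0.46 did not pass the test (SE 0.401, 95% interval -0.33 to 1.25, limma adjusted p = 0.811). *Dgat2* had 2 and 0 reads in WT against 6 and 6 in Rxra-KO, with values of 3.79 and 0.542 in WT against 9.79 and 6.46 in Rxra-KO. The groups did not overlap and WT was at the floor. The scaled Rxra-KO reads averaged 1.92 times that floor, a ratio that takes them as exact, so no lower bound is given. *Dgat2* did not pass the test (log2 fold change 1.72, unadjusted 95% interval 0.14 to 3.31, limma adjusted p = 0.410). The fold change ranged from 0.91 to 2.54 with a library left out, and the gene had 14 reads in all.

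**Figure D2:**
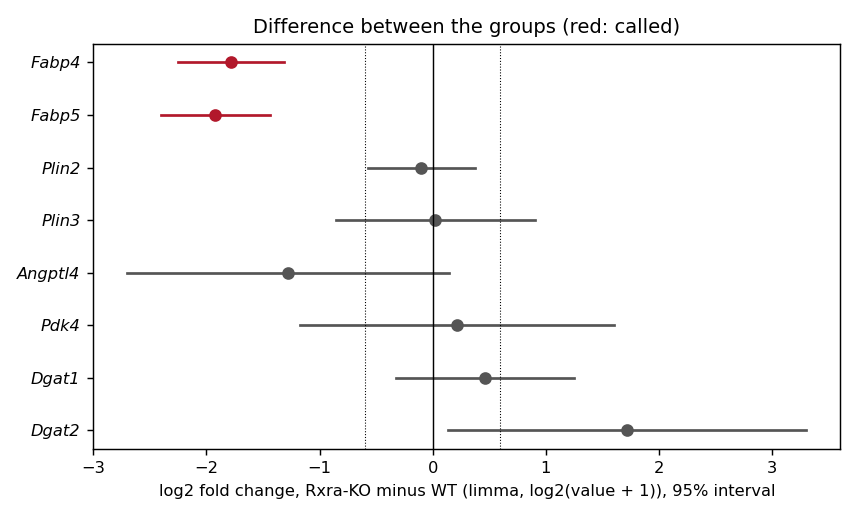
Log2 fold change of each of the 8 genes, libraries labelled Rxra-KO minus WT (limma on log2(value + 1), point) with its 95% interval (line); red marks called genes and dotted lines the fold threshold of 0.6. *Fabp4* (-1.78) and *Fabp5* (-1.92) lie wholly below -0.6, and the widest intervals belong to *Dgat2*, *Angptl4* and *Pdk4*.

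**Figure D3:**
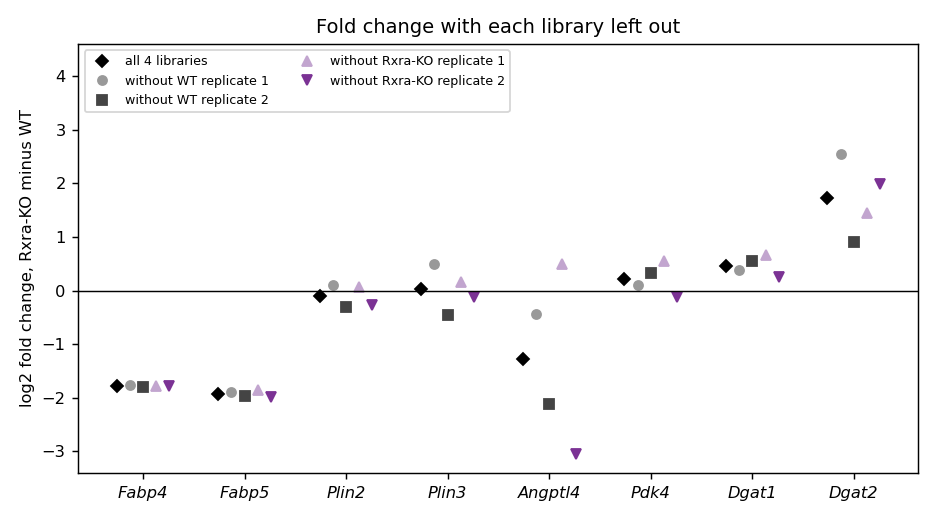
Log2 fold change, Rxra-KO minus WT, of each of the 8 genes with all 4 libraries (black diamond) and with each library left out in turn (other symbols). The points of *Fabp4* and *Fabp5* nearly coincide, while those of *Angptl4* run from -3.05 to 0.49.

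The receptors that could act on these genes were sparsely sequenced. *Ppara*, the receptor of fatty acid oxidation in liver, was counted 1 and 7 times in WT and 4 and 7 times in Rxra-KO, and *Ppard* had at most 1 read in any library. *Pparg*, the receptor of adipocytes and lipid-laden macrophages, had 1 and 0 reads in WT against 24 and 6 in Rxra-KO, with values of 2.27 and 0.542 in WT against 36.9 and 6.46 in Rxra-KO. It was called higher (log2 fold change 2.90, SE 0.789, limma adjusted p = 0.0164), with most of its reads in Rxra-KO replicate 1. The size and the call rested on single libraries. Leaving out Rxra-KO replicate 1 gave 1.73 on the log2 scale (limma adjusted p = 0.855), leaving out WT replicate 2 gave 2.36 (adjusted p = 0.139) and leaving out Rxra-KO replicate 2 gave 4.08. The mean of the Rxra-KO libraries was 5.40 times the WT floor, a ratio set mainly by Rxra-KO replicate 1, so no lower bound is given. *Rxrb* had 13 and 16 reads in WT against 13 and 23 in Rxra-KO (log2 fold change 0.18, limma adjusted p = 0.973). For *Rxrg*, WT libraries held 10 and 1 reads and Rxra-KO libraries 1 and 3, so that leaving out WT replicate 1 turned the log2 fold change from -0.80 to 0.54. The coactivators *Ppargc1a* (8 to 23 reads) and *Ppargc1b* (4 to 23 reads) had groups that overlapped. Of the 13 receptors and coactivators, 1 was called higher and 0 lower (7.69% called, against 2.29% of all genes).

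Among 23 measured genes of a list of 25 other PPAR targets, 1 was called higher and 0 lower (4.35% called, against 2.29% of all genes). The median on the log2 scale was 0.06. The study had named the called gene, *Lpl*, as higher from these libraries, so that call is not independent evidence. The quantitative PCR of lipid genes in other mice, mentioned above, was not used here. *Lpl*, which frees fatty acids from lipoproteins, had values of 455 and 327 in WT against 561 and 965 in Rxra-KO. It rose by 0.93 on the log2 scale (SE 0.225, limma adjusted p = 0.00375), with the highest value in Rxra-KO replicate 2. Without that library the log2 fold change was 0.54 and without WT replicate 2 it was 0.69, and neither was called (limma adjusted p = 0.533 and 0.402). *Cd36*, a fatty acid transporter and scavenger receptor, had values of 379 and 496 in WT against 502 and 527 in Rxra-KO (log2 fold change 0.24, limma adjusted p = 0.826). *Ucp2*, a mitochondrial carrier, had values of 437 and 465 in WT against 216 and 346 in Rxra-KO. The log2 fold change of -0.72 did not pass the test (limma adjusted p = 0.0817), although it did without Rxra-KO replicate 2 (-1.06, adjusted p = 0.00675).

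Of 12 further fatty acid and retinoid binding proteins, 5 were in the table and 1 was called. Their median log2 fold change was -0.86, and setting those with a single group at the floor to their bound made it -0.61. *Fabp7* had 20 and 34 reads in WT against 2 and 16 in Rxra-KO, with values of 31.04 and 37.4 in WT against 3.76 and 16.4 in Rxra-KO. It fell by 1.95 on the log2 scale (SE 0.538, limma adjusted p = 0.0197), but only without Rxra-KO replicate 2 did the call hold with a library left out, and without Rxra-KO replicate 1 the log2 fold change was -1.01 (adjusted p = 0.764). *Fabp3*, the heart form, had 12 and 6 reads in WT against 3 and 5 in Rxra-KO (log2 fold change -0.99, limma adjusted p = 0.728). *Fabp12*, next to *Fabp4* on the chromosome, had 1 and 11 reads in WT against 3 and 6 in Rxra-KO, and the groups overlapped.

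The remaining lists held no called gene. Of 15 measured genes among 18 other perilipins and droplet proteins, 0 were called and the median log2 fold change was 0.34; those with the highest values were *Rab18*, a droplet GTPase (64.35 and 76.5 in WT, 94.1 and 60.1 in Rxra-KO), *Pcyt1a*, which makes phosphatidylcholine (40.1 and 59.1 in WT, 73.0 and 63.1 in Rxra-KO), and *Ldah*, found under an older symbol (58.3 and 35.3 in WT, 55.0 and 62.1 in Rxra-KO). Of 8 measured genes of 9 for triglyceride breakdown, 0 were called and the median was -0.15, with log2 fold changes of -0.16 for *Ddhd2*, -0.14 for the lysosomal lipase *Lipa* and 0.29 for *Pnpla3*. Of 20 measured genes of 21 for triglyceride and sterol ester synthesis, 0 were called and the median was -0.08. *Acsl5*, which activates fatty acids, had values of 903 and 1086 in WT against 779 and 914 in Rxra-KO (log2 fold change -0.23, limma adjusted p = 0.834), *Acsl4* had a log2 fold change of -0.23, and *Soat1*, which esterifies cholesterol, 0.01. Of 14 measured genes of 17 in the PDK and ANGPTL group, 0 were called and the median was 0.19, with -0.44 for *Pdha1* and -0.31 for *Pdhb*, subunits of pyruvate dehydrogenase, and 0.05 for its kinase *Pdk1*.

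**Figure D4:**
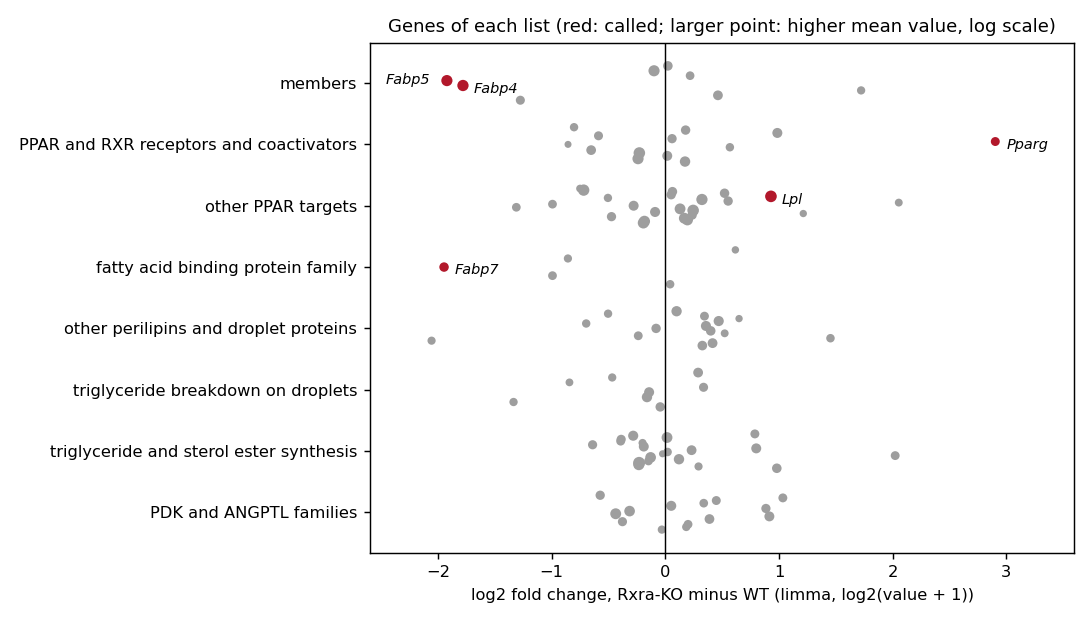
Log2 fold change, Rxra-KO minus WT (limma on log2(value + 1)), of every measured gene of the 8 genes (members) and of the 7 lists; red marks called genes, with their names, and larger points have a higher mean value. *Fabp4*, *Fabp5* and *Fabp7* stand to the left of 0, *Pparg* and *Lpl* to the right, and the other points are not called.

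Over all lists without the 8 genes, 97 of 113 listed genes were measured and 3 were called (3.09%), near the share of 2.29% over all genes. An unadjusted limma p under 0.05 was reached by 11 of these 97 (11.3%), where 10.1% of all genes reached it. The 8 of the 11 that were not called include genes picked here after their values were seen. *Gpam*, the first enzyme of triglyceride synthesis, had 3 and 1 reads in WT against 6 and 24 in Rxra-KO (adjusted p = 0.167, limma). *Gpd1*, which supplies its glycerol backbone, was without reads in WT (0 and 0) and had 3 and 6 in Rxra-KO (limma adjusted p = 0.238). *Cidea*, a droplet fusion protein, had 6 and 5 reads in WT against 0 and 1 in Rxra-KO (limma adjusted p = 0.244). *Dld*, a pyruvate dehydrogenase subunit, had 23 and 23 reads in WT against 33 and 66 in Rxra-KO (limma adjusted p = 0.271).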

How the data were processed

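The authors deposited 1 column of normalised signal for each library. RNA was amplified with a SMART-Seq v4 kit without molecular identifiers, and per the methods transcripts were quantified with kallisto (version 0.43.0), summarised to genes and scaled with TMM. The labels name GRCh38 for these mouse libraries and the table has mouse symbols without coordinates, so the reference used was not settled. Every deposited value was (reads + 0.5) over a scaled library size, and 100% gave whole reads within 0.01. Counting error alone is covered by floors.

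All 18364 genes entered a fit in limma (3.58.1, under R 4.3.3) on log2(value + 1) with an empirical Bayes trend, over 4 libraries and without covariates. Two-sided p-values were adjusted by Benjamini-Hochberg over the whole table. Fold changes on this scale understate the change of low genes. Requiring 2 libraries with a value of 1 or more removed 0 genes. With 2 libraries against 2, an exact permutation test cannot go below p = 0.333, so each adjusted p rests on spread shared across genes (227 prior, 2 residual degrees of freedom). Alternatives used edgeR (4.0.16), DESeq2 (1.42.0) and voom on recovered reads. The limma and edgeR fits were run on simulated counts with changes placed only in genes with many reads. Recovery of changes in low genes was not tested.

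The 8 genes, the lists and the naming rule were chosen with earlier results of these data known. Text names the 8 genes, all PPAR and RXR genes and, per list, called genes and those with the highest mean until 3 were named. Columns mapped to samples by the labels, and replicate numbers follow the titles.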

Additional observations from a re-analysis of the deposited data

How the results depend on the processing

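*Fabp4* and *Fabp5* stayed called in every alternative except limma without a trend, where their log2 fold changes of -1.78 and -1.92 had adjusted p = 0.472 and 0.453, 0 of the 8 genes and 0 genes of the lists were called, and 0 genes of the table were called (1579 at an unadjusted p under 0.05). Of the table, 245 genes were called without TMM as CPM of whole reads and 246 by DESeq2 (421 in the reported fit). That setting also drops the 0.5 read that the deposited values carry. A second version that keeps the 0.5 read, so that TMM alone differs, was added after the first result was seen and called 406 genes, 387 of them shared with the reported fit. Recovered reads gave 446 called genes by edgeR. Leaving out 1 library gave 236 to 377 called genes, with 2 of the 8 genes called each time, and 0 to 3 genes of the lists. Genes of the lists called were 0 without TMM (3 when the 0.5 read was kept), 1 by DESeq2 and 1 by voom. *Pparg*, *Lpl* and *Fabp7* were not called without TMM (adjusted p = 0.164, 0.0734 and 0.198) or without a trend (0.513, 0.658 and 0.529). *Pparg* was also not called with the mean filter of 10 (0.179) or voom (0.0659), and *Fabp7* not with edgeR and TMM (0.0573) or voom (0.0636). DESeq2 gave no adjusted p for *Pparg* and *Fabp7*. The replicate block, for numbers that only label the libraries (correlation of same-numbered deviations 0.0629 over 10049 genes), gave 540 called genes, 2 of the 8 genes and 4 genes of the lists, *Ucp2* added.

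Direction turned only for genes that were not called. *Plin3* was -0.024 by edgeR with RLE and -0.052 by DESeq2. *Fabp12* was -0.056 with a pseudocount of 5, -0.42 and -0.44 by edgeR with TMM and RLE, -0.41 by DESeq2 and -0.033 by voom. *Soat1* was -0.0060 with median-of-ratios scaling. *Pdk1* was -0.0057 and -0.027 by edgeR with TMM and RLE and -0.033 by DESeq2. With 1 library left out, ranges were -0.31 to 0.11 for *Plin2*, -0.45 to 0.50 for *Plin3*, -3.05 to 0.49 for *Angptl4*, -0.12 to 0.56 for *Pdk4*, -0.17 to 1.31 for *Ppara*, -2.15 to 0.54 for *Rxrg*, -0.35 to 0.47 for *Ppargc1a*, -1.47 to 0.29 for *Ppargc1b*, -0.98 to 1.06 for *Fabp12*, -0.22 to 0.42 for *Rab18*, -0.42 to 0.10 for *Ddhd2*, -0.49 to 0.21 for *Lipa*, -0.33 to 0.91 for *Pnpla3*, -0.58 to 0.11 for *Acsl4*, -0.21 to 0.24 for *Soat1* and -0.48 to 0.59 for *Pdk1*. Except where a setting's construction is stated, the cause was not tested. A median of 9 reads per gene and library limits the low genes.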
